A study of Mus musculus with 66 samples.

Results

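Rbfox2 and 8 other regulators of alternative splicing (Mbnl1, Mbnl2, Mbnl3, Esrp1, Esrp2, Ptbp1, Ptbp2 and Celf1) were followed through RNA sequencing of mouse embryonic stem cells (line E14) in which a stretch of Praf2 was deleted. The genes were a fixed list of 9 symbols, matched through their Ensembl identifiers among 55487 gene identifiers. All 9 passed the filter on low counts, as did 15421 genes in all. Which values led to the list is not stated. Rbfox2 was lower in GDel1 than in WT in earlier results from these libraries, and this was taken as the basis of its choice. The other members were also listed with earlier results known, so their tests may not be independent of the choice. The values of all 9 genes in GDel1 against WT are therefore given as a description without a test, and so are the values of Rbfox2 in the other comparisons that hold GDel1.

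The libraries were GDel1 (2 libraries) and GDel2 (2 libraries), both labelled with the same Praf2 G4 deletion, and WT (3 libraries), the undeleted E14 line. G4 stands for G-quadruplex, a fold that strands rich in guanine can take. Whether GDel1 and GDel2 are different clones, and whether replicates come from different cultures, is not in the labels, so that p-values measure only the spread between these libraries. All cells were untreated and grew in serum with LIF, 3 µM of a GSK inhibitor and 1 µM of a MEK1/2 inhibitor, a medium that holds embryonic stem cells in an undifferentiated state. Total RNA was sequenced after removal of ribosomal RNA. The other 59 of 66 samples of the series were not analysed here.

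The members are RNA-binding proteins that choose which exons of a pre-mRNA are kept, and each is best known from a tissue in which it sets a splicing programme. RBFOX2 activates or represses an exon according to whether it binds after or before it. The MBNL proteins promote adult splicing patterns in muscle, heart and brain and repress exons typical of embryonic stem cells, and in myotonic dystrophy they are sequestered by repeat RNA. ESRP1 and ESRP2 set the epithelial programme, including the epithelial form of Fgfr2. PTBP1 represses neuronal exons, among them an exon of Ptbp2, whose transcripts without that exon are degraded by nonsense-mediated decay, and PTBP2 is the neuronal paralog. CELF1 acts opposite to MBNL proteins on some exons of muscle and heart and also promotes mRNA decay.

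Depth was 12316853 to 18762704 expected counts per library. Praf2, the gene that carries the deletion, stood at 10.1 and 9.26 CPM in GDel1, at 13.1 and 14.1 CPM in GDel2, and at 27.5, 28.8 and 30.6 CPM in WT, where CPM is the count relative to the TMM-scaled depth of its library. Replicates differed beyond counting error in every group, by a chi-square over its degrees of freedom of 63.8 in GDel1, 21.0 in GDel2 and 4.61 to 6.97 in WT. Mitochondrial transcripts took 9.91% and 4.83% of counts in the GDel1 libraries, 6.19% and 9.60% in the GDel2 libraries, and 6.30% to 6.89% in WT, with 95% Wilson intervals that reach at most 0.0159 percentage points to either side and cover counting error only. All 8 embryonic stem cell markers were detected, with summed levels of 4671 to 5489 CPM in GDel1, 4139 to 4444 CPM in GDel2 and 5010 to 5074 CPM in WT. In GDel2 against WT, 2 of the 8 were higher and 4 lower at an adjusted p under 0.05 by edgeR. Those past it were Sox2, Nanog, Zfp42, Esrrb, Tfcp2l1 and Dppa5a. Of all tested genes, 17.4% were higher and 15.6% lower at that threshold. In bulk RNA, fewer cells that express a gene and less of its RNA per cell cannot be told apart.

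The 3 Mbnl genes are shown by their promoters, because paralogs passed the threshold in GDel2 in different directions. The deletion that defines the groups is named for a G-quadruplex, so that the 250 bases before each annotated start (RefSeq, GRCm38.p6) were searched on both strands for 4 runs of 3 or more G with 1 to 7 bases between them. Capitals mark the G runs of a match, and sequences run 5′ to 3′ on the gene's strand. Mbnl1 has entries for 2 starts, at chr3:60472580-60472829 and chr3:60500929-60501178 on the plus strand. Mbnl2 lies at chr14:120275419-120275668 on the plus strand and Mbnl3 at chrX:51205991-51206240 on the minus strand.
Mbnl1, first start: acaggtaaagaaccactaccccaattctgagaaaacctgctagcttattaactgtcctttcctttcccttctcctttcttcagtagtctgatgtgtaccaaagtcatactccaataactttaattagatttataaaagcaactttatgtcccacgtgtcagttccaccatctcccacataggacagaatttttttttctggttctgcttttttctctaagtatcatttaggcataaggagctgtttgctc
Mbnl1, second start: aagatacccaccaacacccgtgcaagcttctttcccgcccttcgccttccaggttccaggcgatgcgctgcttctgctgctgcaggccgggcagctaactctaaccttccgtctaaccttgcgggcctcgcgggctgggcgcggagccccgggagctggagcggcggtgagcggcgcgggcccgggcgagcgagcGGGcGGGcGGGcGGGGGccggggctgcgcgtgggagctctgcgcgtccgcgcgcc
Mbnl2: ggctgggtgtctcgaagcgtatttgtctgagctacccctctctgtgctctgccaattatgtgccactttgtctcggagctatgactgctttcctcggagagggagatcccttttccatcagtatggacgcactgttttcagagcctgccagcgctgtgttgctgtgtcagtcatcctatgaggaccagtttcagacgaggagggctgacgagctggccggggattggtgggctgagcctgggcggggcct
Mbnl3: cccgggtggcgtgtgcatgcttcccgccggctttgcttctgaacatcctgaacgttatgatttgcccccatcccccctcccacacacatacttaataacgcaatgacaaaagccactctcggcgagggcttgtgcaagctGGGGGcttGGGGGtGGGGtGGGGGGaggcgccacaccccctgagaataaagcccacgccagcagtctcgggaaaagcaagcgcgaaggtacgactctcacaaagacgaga
The motif was present before the second Mbnl1 start and before Mbnl3, and these letters were not found before the first Mbnl1 start or Mbnl2. Among the other members with an entry, the promoter of Ptbp2, which did not pass in a test, held the motif on both strands, and those of Ptbp1 and Celf1 did not hold it. Of all 32851 promoters in the table, 16.7% hold it. The second Mbnl1 promoter is the most CpG-rich of the 4, with 33 CpG and 73.6% GC. The first Mbnl1 promoter has 1 CpG and 38.0% GC, that of Mbnl2 has 10 CpG and 57.2% GC, and that of Mbnl3 has 15 CpG and 59.2% GC, against medians of 6 CpG and 52.4% GC over all promoters. A match is a description of the letters and says nothing of a folded structure in these cells. Of the 9 members, 6 have a promoter entry, and Rbfox2, Esrp1 and Esrp2 are named only.

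Levels were ordered per transcript length, in TPM. In GDel1 the order of mean TPM was Ptbp1 (143), Celf1 (40.8), Ptbp2 and Rbfox2 (8.79 each), Mbnl2 (6.47), Mbnl1 (4.44), Esrp2 (2.08), Mbnl3 (0.55) and Esrp1 (0.05). In GDel2 it was Ptbp1 (210.3), Celf1 (54.2), Rbfox2 (19.0), Ptbp2 (11.3), Mbnl1 (10.9), Mbnl2 (3.31), Esrp2 (2.75), Mbnl3 (1.98) and Esrp1 (0.09). In WT it was Ptbp1 (212), Celf1 (61.7), Rbfox2 (27.3), Ptbp2 (12.5), Mbnl2 (9.54), Mbnl1 (7.74), Esrp2 (3.41), Mbnl3 (0.43) and Esrp1 (0.16). Ptbp1, at the 97.3rd to 97.9th percentile of tested genes, and Celf1 led in each group, and Mbnl3 and Esrp1 came last.

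Some neighbours in those orders could not be separated. Rbfox2 and Ptbp2 overlapped in GDel1 (8.09 to 9.48 TPM for Rbfox2 and 8.61 to 8.96 TPM for Ptbp2), whereas in GDel2 and WT every library had more TPM of Rbfox2 than of Ptbp2. Ptbp2 and Mbnl1 overlapped in GDel2, as did Mbnl2 and Esrp2. In WT the ranges of Mbnl2 (8.99 to 10.4 TPM) and Mbnl1 (5.96 to 9.45 TPM) overlapped, with Mbnl2 the higher in each of the 3 libraries. The order of Mbnl1 and Mbnl2 was the other way round in GDel2, in which each library had more Mbnl1 (9.41 and 12.4 TPM) than Mbnl2 (2.91 and 3.70 TPM). TPM is scaled to a fixed sum, and on this scale the median gene was lower in GDel1 than in WT by a log2 difference of −0.30, so that TPM is used here within groups.

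**Figure D1:**
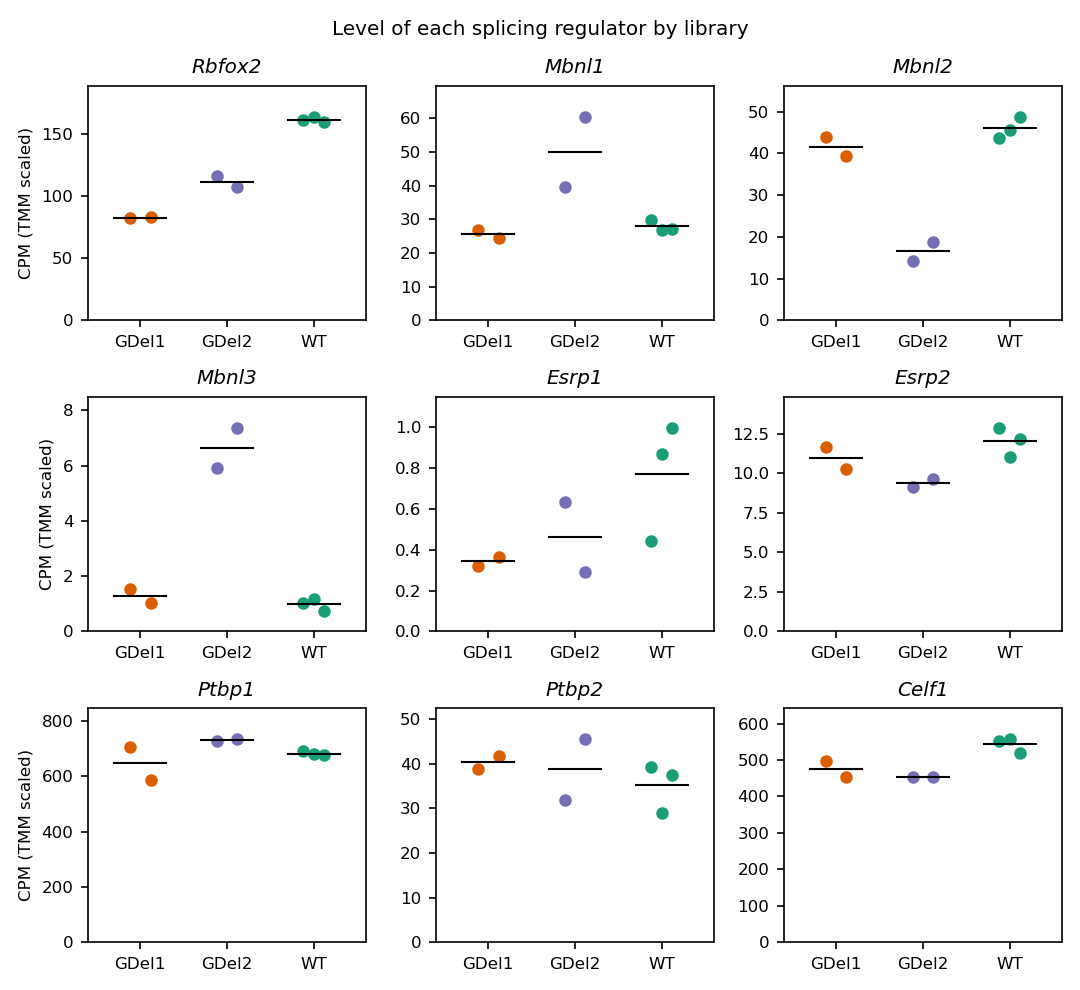
CPM (counts relative to the TMM-scaled depth) of each of the 9 genes, with 1 point per library of GDel1, GDel2 and WT and a line at each group's mean; each vertical axis starts at 0 and has its own range. Rbfox2 falls into 3 separate levels, with GDel1 at 82.3 and 83.4 CPM, GDel2 at 117 and 107 CPM and WT at 159.7 to 164 CPM, while Mbnl2 and Mbnl3 stand apart in GDel2.

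Rbfox2 was lower in both deletion groups than in WT, by 1.95-fold in GDel1 and 1.45-fold in GDel2. Rbfox2 (ENSMUSG00000033565; chromosome 15, 77078990 to 77308434 in GRCm38.p6, 15 annotated transcripts) stood at 82.3 and 83.4 CPM in GDel1, at 117 and 107 CPM in GDel2, and at 161, 164 and 159.7 CPM in WT. None of the 3 groups overlapped, and the GDel2 libraries lay between the others. Of tested genes, 43.5% did not overlap in GDel1 against WT, 63.2% in GDel2 against WT and 59.1% in GDel2 against GDel1. On the log2 scale the difference of GDel1 from WT was −0.97 ± 0.08 (SE), past the threshold that 0.376% of tested genes passed, which is the value Rbfox2 was chosen on and from which nothing is read. The difference of GDel2 from WT was −0.53 ± 0.08 (SE; adjusted p = 0.00145, edgeR's quasi-likelihood test), and 15.6% of tested genes were lower past the threshold in that comparison. The 2 comparisons share their WT libraries and their fit, so the test of GDel2 is not independent of the choice of Rbfox2. With limma on log2(TPM + 1) the GDel2 difference did not pass (adjusted p = 0.0845), and its adjusted p ranged from 1.94e-05 to 0.0862 over the alternatives. GDel2 was above GDel1 by a log2 difference of 0.43 ± 0.09 (SE).

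Apol6, the tested gene nearest to Rbfox2 (chromosome 15, 77045050 to 77057108, 21882 bases before it), was likewise at a lower level in both deletion groups. Apol6 belongs to a family of apolipoprotein L genes and stood at 2.90 and 2.81 CPM in GDel1, at 3.16 and 2.39 CPM in GDel2, and at 5.93 to 6.77 CPM in WT. The log2 difference was −1.12 ± 0.19 in GDel1 against WT (adjusted p = 0.0515) and −1.17 ± 0.19 in GDel2 against WT (adjusted p = 0.00210; SE, edgeR). Neither deletion group overlapped with WT, as in 43.5% of tested genes for GDel1 and 63.2% for GDel2. The second nearest gene, 1110038F14Rik (128011 bases before Rbfox2), passed in neither comparison. It had 6.04 and 10.04 CPM in GDel1, 4.66 and 3.69 CPM in GDel2, and 6.40, 6.06 and 6.62 CPM in WT.

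Of the 23 tested genes within 500 kb of Rbfox2, 1 was lower in GDel1 against WT (0.214% of all tested genes were) and 0 were higher (0.162%). Their median log2 difference was −0.01. The gene that fell is Myh9 (452151 bases after Rbfox2), the heavy chain of a non-muscle myosin, named after its values were seen. It had 16.4 and 20.7 CPM in GDel1, 97.7 and 84.9 CPM in GDel2, and 173, 177 and 177 CPM in WT. Myh9 thus had the same order of groups as Rbfox2, with wider gaps, and Praf2 had this order too. How many tested genes have it was not counted, so nothing is read from the match. In GDel2 against WT, 8 of the 23 were lower, Apol6 and Myh9 among them, and 0 were higher, with a median of −0.28. For all 523 tested genes of chromosome 15 the median was −0.05 in GDel2 against WT, with 13.8% higher and 20.1% lower.

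**Figure D2:**
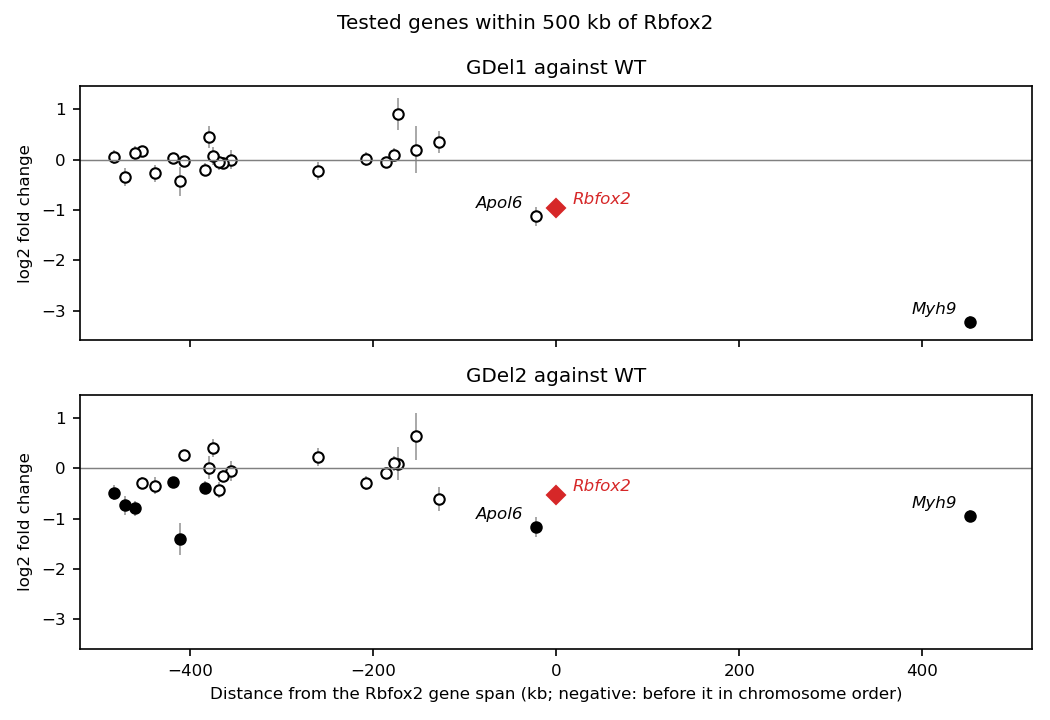
Log2 fold change (vertical axis) of the 23 tested genes within 500 kb of Rbfox2 against their distance from the Rbfox2 gene span in kb (negative before it in chromosome order), for GDel1 against WT above and GDel2 against WT below. Filled points passed an adjusted p of 0.05, lines are standard errors and the red diamond is Rbfox2; Apol6 (−1.12 in GDel1 and −1.17 in GDel2) and Myh9 (−3.23 and −0.94) lie on either side of it.

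The genes whose level most resembled that of Rbfox2 over the 7 libraries were ranked by Pearson's r of log2 CPM among 4453 genes with a mean of at least 10 CPM and an SD of at least 0.2. They were Sept3 (0.994), Haus4 (0.993), Cdr2l (0.992), Vangl2 (0.987) and Crtc2 (0.982). Crtc2, a coactivator of CREB, averaged 21.9 CPM in GDel1, 28.3 CPM in GDel2 and 37.8 CPM in WT. Vangl2, a planar cell polarity protein, averaged 45.2 CPM in GDel1, 53.1 CPM in GDel2 and 63.9 CPM in WT. These are descriptions over libraries that share their groups and depths, and 0.404% of the genes compared had an r over 0.95.

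The 3 Mbnl genes changed in different directions in GDel2. Mbnl3 rose 6.81-fold and Mbnl1 rose 1.80-fold against WT, while Mbnl2 fell 2.78-fold, and all 3 also differed from GDel1 past the threshold. Mbnl2 (ENSMUSG00000022139; chromosome 14, 120275652 to 120431698) stood at 43.9 and 39.4 CPM in GDel1, at 14.3 and 18.8 CPM in GDel2, and at 43.7, 45.6 and 48.8 CPM in WT. Every GDel2 library lay below every other library, while GDel1 and WT overlapped. The log2 difference of GDel2 was −1.48 ± 0.13 from WT (adjusted p = 1.16e-04) and −1.33 ± 0.14 from GDel1 (adjusted p = 3.49e-04; SE, edgeR). Both held under every alternative tried, with adjusted p of at most 0.00804 against WT and 0.00856 against GDel1. In GDel1 against WT the log2 difference was −0.15 ± 0.12.

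Mbnl3 (ENSMUSG00000036109; chromosome X, 51113494 to 51205990), the least abundant of the 3, had 19 and 20 counts in GDel1, 75 and 102 counts in GDel2, and 14, 19 and 14 counts in WT. This came to 1.53 and 1.04 CPM in GDel1, 5.92 and 7.37 CPM in GDel2, and 1.03, 1.18 and 0.735 CPM in WT. Both GDel2 libraries lay above all others, and GDel1 and WT overlapped. The log2 difference of GDel2 was 2.77 ± 0.26 from WT (adjusted p = 1.43e-04) and 2.40 ± 0.29 from GDel1 (adjusted p = 6.36e-04; SE, edgeR). With limma on log2(TPM + 0.1) neither passed (adjusted p = 0.0744 against WT and 0.121 against GDel1), and over the other alternatives both did. In GDel1 against WT the difference was 0.37 ± 0.32.

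Mbnl1 (ENSMUSG00000027763; chromosome 3, 60472559 to 60629750, 25 annotated transcripts) stood at 26.9 and 24.4 CPM in GDel1, at 39.7 and 60.5 CPM in GDel2, and at 29.9, 26.9 and 27.0 CPM in WT. The GDel2 libraries were above all others but far apart (50.1 ± 14.7 CPM, SD, n = 2). Mitochondrial transcripts took 9.60% of counts in the library with 60.5 CPM and 6.19% in the other, and the part of this in the result was not tested. The log2 difference of GDel2 was 0.85 ± 0.16 from WT (adjusted p = 0.00480) and 0.97 ± 0.18 from GDel1 (adjusted p = 0.00540; SE, edgeR). Without GDel2 replicate 2 the difference from WT was 0.51 (adjusted p = 0.0320). The call against WT was lost with limma on log2(TPM + 1) (adjusted p = 0.144), on log2(TPM + 0.1) (0.151) and with a replicate block (0.0571), with adjusted p of 6.23e-09 to 0.151 over all alternatives. In GDel1 against WT the difference was −0.12 ± 0.17. The groups were apart only narrowly, with the highest GDel1 library at 26.89 CPM and the lowest WT library at 26.91 CPM.

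Summed over the 3 genes, Mbnl CPM was 72.3 and 64.9 in GDel1, 59.9 and 86.7 in GDel2, and 74.6, 73.7 and 76.6 in WT. The GDel2 libraries lay on either side of all others. Both GDel1 libraries lay below all WT libraries, where 43.5% of tested genes did not overlap between these groups. The make-up by TPM, which allows for transcript length, set the GDel2 libraries apart. Mbnl2 took 53.9% and 59.3% of summed Mbnl TPM in GDel1, 21.1% and 19.9% in GDel2, and 50.8%, 58.0% and 53.9% in WT. Mbnl1 took 39.4% and 38.1% in GDel1, 68.1% and 66.9% in GDel2, and 46.1%, 38.5% and 45.6% in WT. Mbnl2 was thus the leading Mbnl transcript in each GDel1 and WT library, and Mbnl1 in both GDel2 libraries. Mbnl3 took 6.71% and 2.62% in GDel1, 10.9% and 13.2% in GDel2, and 3.12%, 3.55% and 0.584% in WT. By counts Mbnl3 took 2.12% and 1.60% in GDel1, 9.88% and 8.51% in GDel2, and 1.38%, 1.60% and 0.960% in WT, the TPM shares of this low gene being tied to length estimates of 1007 to 4514 bases. These shares were tested only through the genes' own counts.

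**Figure D3:**
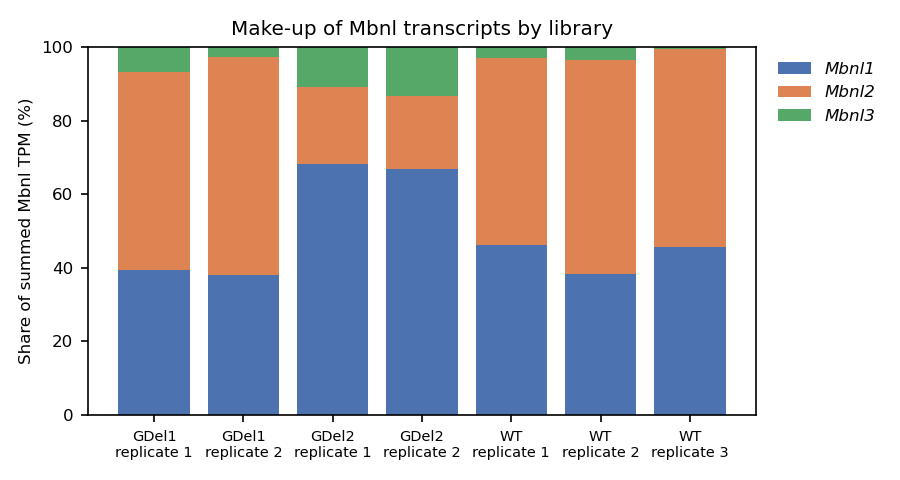
Share of summed Mbnl TPM (percent, vertical axis) taken by Mbnl1, Mbnl2 and Mbnl3 in each of the 7 libraries, stacked to the whole. Mbnl2 holds 19.9% and 21.1% in the GDel2 libraries, against 50.8% to 59.3% in the other 5.

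Markers of other cell types were read beside these values, against the 33.1% of all tested genes that passed in GDel2 against WT. The 6 neural markers summed to 44.6 to 48.3 CPM in GDel1, 90.8 to 95.8 CPM in GDel2 and 35.1 to 36.1 CPM in WT. Tubb3 and Sox1 were the 2 of 6 neural markers past the threshold in GDel2 against WT, both higher, and Pax6 and Dcx stayed under 1 CPM in every library. The 6 muscle markers summed to 1.29 to 1.41 CPM in GDel1, 2.13 to 3.40 CPM in GDel2 and 1.25 to 1.55 CPM in WT. Of these, Des was the 1 past the threshold in GDel2 against WT, higher there, while Myod1, Myog, Myf5, Ckm and Actc1 stayed under 1 CPM in every library and 3 were at 0 throughout. The 6 epithelial markers summed to 290.4 to 295 CPM in GDel1, 459 to 504 CPM in GDel2 and 314 to 325 CPM in WT, with 3 of 6 higher and 2 lower past the threshold in GDel2. Those past it were Epcam, Cdh1, Krt8, Krt18 and Cldn6, of which Krt18 stayed under 1 CPM in every library, as did Cldn7. Sums for fibroblast markers were 4.91 to 5.98 CPM in GDel1, 8.17 to 9.63 CPM in GDel2 and 7.72 to 8.83 CPM in WT, with Thy1 higher past the threshold in GDel2, Col1a2, Acta2 and Postn under 1 CPM in every library and 1 of 6 at 0. Sums for primitive endoderm markers were 1.67 to 2.09 CPM in GDel1, 3.33 to 3.95 CPM in GDel2 and 1.98 to 2.36 CPM in WT, with Gata4 higher past the threshold in GDel2 and Gata6, Sox17, Foxa2 and Dab2 under 1 CPM throughout. The part of these markers in the Mbnl values was not tested.

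Neither Ptbp gene passed the threshold in a tested comparison. Ptbp1 (ENSMUSG00000006498; chromosome 10, 79854432 to 79864435) stood at 706 and 588 CPM in GDel1, at 728 and 737 CPM in GDel2, and at 690.2, 681 and 676 CPM in WT. GDel2 was above WT in every library, by a log2 difference of 0.10 ± 0.10 (SE; adjusted p = 0.467, edgeR), and GDel1 replicate 2 was the lowest of the 7. Ptbp1 is the only member with expected counts that are not whole, in 7 of 7 libraries, so part of its reads were shared out among genes by the authors' tool. In GDel2 against GDel1 its difference was 0.18 ± 0.11 (SE; adjusted p = 0.252, edgeR), which passed without GDel1 replicate 1 (adjusted p = 0.0194).

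Ptbp2 (ENSMUSG00000028134; chromosome 3, 119718741 to 119784647) stood at 38.8 and 41.8 CPM in GDel1, at 31.8 and 45.6 CPM in GDel2, and at 39.2, 28.9 and 37.5 CPM in WT. All 3 groups overlapped, and GDel2 replicate 2 was the highest library. The log2 difference of GDel2 was 0.14 ± 0.18 from WT (adjusted p = 0.590) and −0.06 ± 0.19 from GDel1 (adjusted p = 0.853; SE, edgeR). The ratio of Ptbp1 to Ptbp2 TPM was 17.5 and 15.0 in GDel1, 21.2 and 16.3 in GDel2, and 15.2, 19.6 and 17.1 in WT, with overlap among all groups.

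The Esrp genes did not pass the threshold either. Esrp2 (ENSMUSG00000084128; chromosome 8, 106130319 to 106137193) stood at 11.7 and 10.3 CPM in GDel1, at 9.15 and 9.61 CPM in GDel2, and at 11.01 to 12.9 CPM in WT. GDel2 was below all other libraries, by a log2 difference of −0.35 ± 0.13 from WT (SE; adjusted p = 0.0736, edgeR), which passed when a GDel1 library was left out (adjusted p = 0.0440 and 0.0431). The 712 tested genes of chromosome 8 had a median log2 difference of 0.44 in GDel2 against WT, with 51.0% of them higher past the threshold and 5.62% lower, so that Esrp2 lay below its chromosome's median. The chromosomes of the other members had medians of −0.05 to 0.03. Esrp1 (ENSMUSG00000040728; chromosome 4, 11331933 to 11386783) was near the limit of detection, with 4 and 7 counts in GDel1, 8 and 4 counts in GDel2, and 6, 14 and 19 counts in WT. It passed the filter through WT replicates 2 and 3 alone, so its log2 differences of −1.16 ± 0.53 in GDel1 and −0.78 ± 0.52 in GDel2 (adjusted p = 0.285; SE, edgeR) are not read as a change.

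Celf1 fell slightly in GDel2 and was the weakest of the changes past the threshold. Celf1 (ENSMUSG00000005506; chromosome 2, 90940259 to 91019497) stood at 496 and 453 CPM in GDel1, at 452 and 453 CPM in GDel2, and at 551, 559 and 520.1 CPM in WT. All 4 deletion libraries lay below all 3 WT libraries, and 21.7% of tested genes did not overlap between these sets. The log2 difference of GDel2 from WT was −0.26 ± 0.09 (SE; adjusted p = 0.0449, edgeR), a 1.20-fold fall. It did not pass without GDel2 replicate 1 (adjusted p = 0.0992), without GDel2 replicate 2 (0.153), or without WT replicate 1 (0.145), 2 (0.160) or 3 (0.0841). Nor did it pass with a replicate block (0.170) or with limma on log2(TPM + 1) (0.497) or log2(TPM + 0.1) (0.505), and its adjusted p ranged from 0.00435 to 0.505 over the alternatives. In GDel1 against WT the difference was −0.20 ± 0.09, and in GDel2 against GDel1 it was −0.07 ± 0.09 (adjusted p = 0.632).

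Across the members, 5 of 9 passed in GDel2 against WT, where 33.1% of tested genes did. Mbnl1 and Mbnl3 were the 2 higher ones, against 17.4% of tested genes, and Rbfox2, Mbnl2 and Celf1 the 3 lower ones, against 15.6%. The call of Rbfox2 rests in part on the WT libraries that also entered its choice. The median log2 difference of the 9 was −0.26, against 0.01 over all genes tested, with Mbnl2 and Mbnl3 beyond the 5th and 95th percentiles of all genes (−1.09 and 1.25). In 7 of 9 the GDel2 and WT libraries did not overlap, and in 63.2% of tested genes. In GDel2 against GDel1, 3 of the 8 members other than Rbfox2 passed, the Mbnl genes, where 27.7% of tested genes did. The groups did not overlap in 5 of the 8, and in 59.1% of tested genes. In GDel1 against WT, a description without a test, only Rbfox2 of the 9 was past the threshold, as were 0.376% of tested genes. That is the value Rbfox2 was chosen on, and nothing is read from it. The groups did not overlap for Rbfox2, Mbnl1 (by a narrow margin), Esrp1 and Celf1, where 43.5% of tested genes did not overlap.

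**Figure D4:**
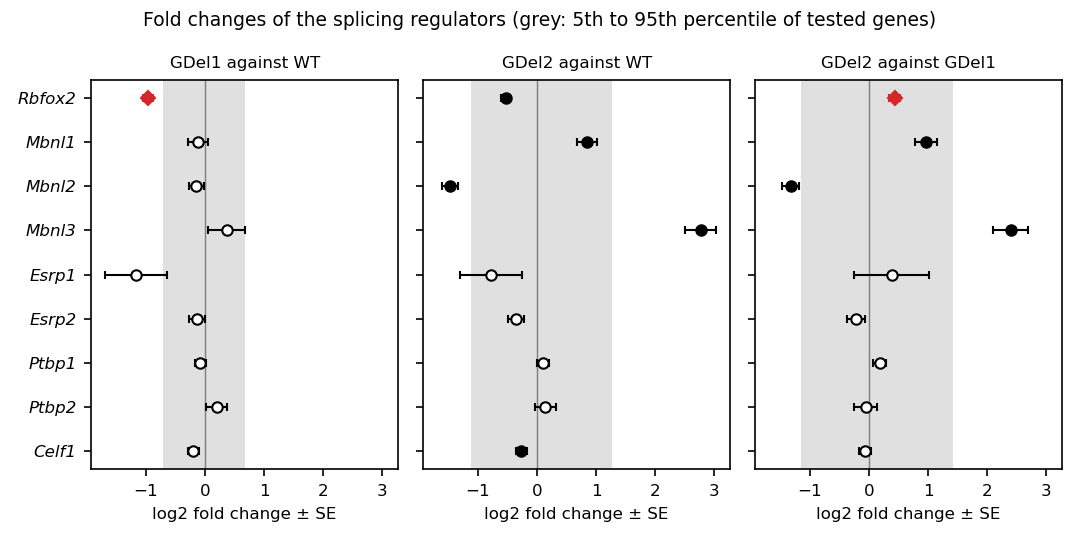
Log2 fold change with its standard error for each of the 9 genes in GDel1 against WT, GDel2 against WT and GDel2 against GDel1; grey bands span the 5th to 95th percentile of all 15421 tested genes, filled points passed an adjusted p of 0.05, and red diamonds are Rbfox2 where it is given without a test. Mbnl2 (−1.48) and Mbnl3 (2.77) leave the band in GDel2 against WT. In GDel1 against WT, Rbfox2 (−0.97) lies outside it on values taken as the basis of its choice. Esrp1 (−1.16) also does, with few counts and a filter passed through WT alone, and neither is read.

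When GDel1 and GDel2 were set against WT as 1 group of 4 libraries, with the gap between them counted as error, 0 of the 8 members other than Rbfox2 passed by edgeR, as did 0% of tested genes. At an unadjusted p under 0.05 there were 2 of the 8 (Mbnl3 and Celf1) and 2930 genes, and DESeq2 called 1 of the 8 (Celf1) and 969 genes. Of the 8, Celf1 was the 1 member whose groups did not overlap, where 21.7% of tested genes did not overlap. The log2 difference of the deletion libraries from WT was −0.73 ± 0.14 for Rbfox2, given without a test, 2.01 ± 0.71 for Mbnl3 (adjusted p = 0.209), −0.66 ± 0.36 for Mbnl2 (adjusted p = 0.336) and −0.23 ± 0.08 for Celf1 (adjusted p = 0.216; SE, edgeR).

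The deposited mean transcript length of a gene, weighted by the abundance of its transcripts, changes when the mix of isoforms changes. For Celf1 it was 5830 and 5486 bases in GDel1, 5335 and 5181 bases in GDel2, and 5959, 5907 and 5773 bases in WT. The GDel2 libraries were the shortest, with a log2 length ratio of −0.16 ± 0.03 to WT (SE; unadjusted p = 0.00433, adjusted p = 0.469, limma). For Rbfox2 it was 4121 and 5216 bases in GDel1, 3896 and 3636 bases in GDel2, and 3718, 4248 and 4169 bases in WT. GDel1 replicate 2 was the longest and GDel2 and WT overlapped, with a log2 ratio of GDel2 to WT of −0.10 ± 0.12 (adjusted p = 1, limma). For Mbnl3, with its few counts, estimates ran from 1007 to 4514 bases over the 7 libraries. In GDel2 against WT, 0 of the 11427 genes with varying length passed (0%), with 700 at an unadjusted p under 0.05, of which Celf1 was the only member. With effective lengths, 0 of 11803 genes passed.

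**Figure D5:**
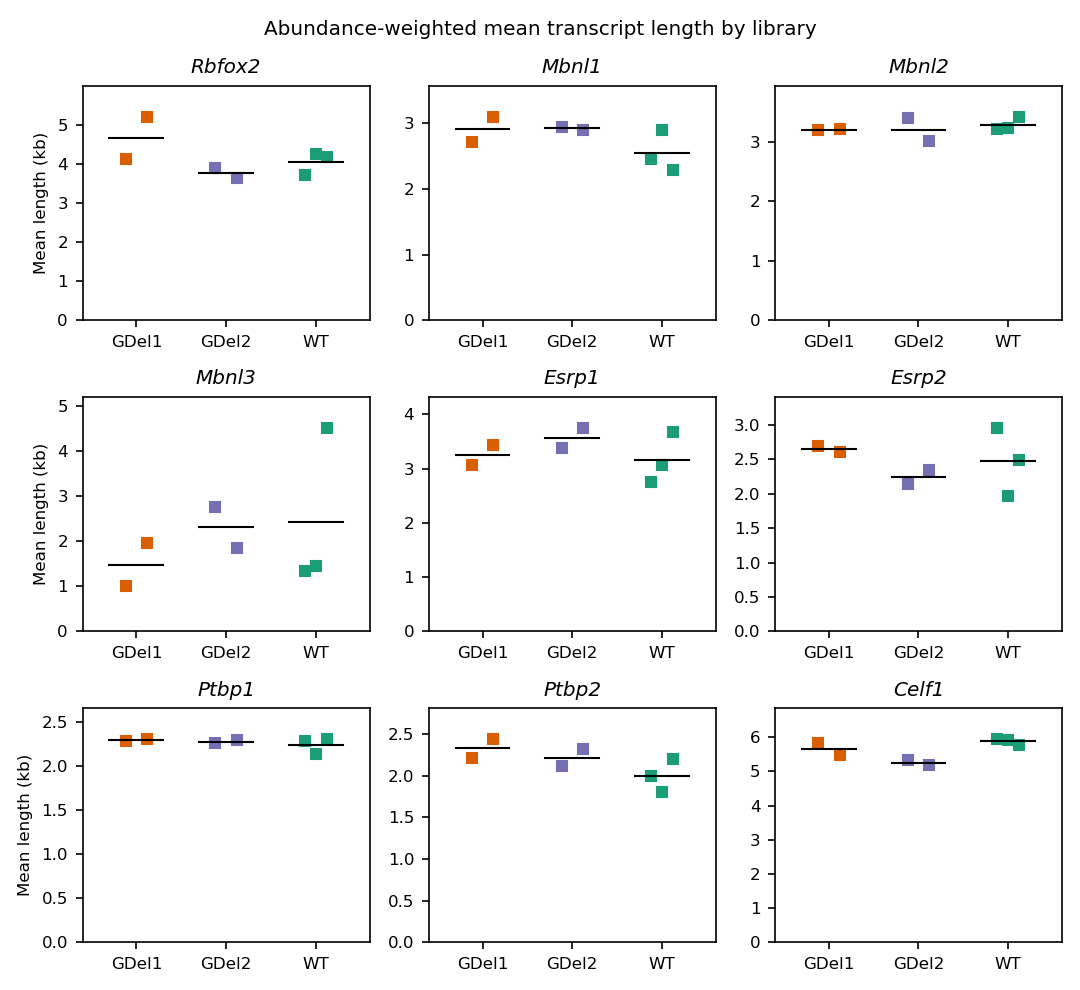
Abundance-weighted mean transcript length in kb for each of the 9 genes, with 1 square per library of GDel1, GDel2 and WT and a line at each group's mean; vertical axes start at 0. Celf1 is shortest in GDel2 (5335 and 5181 bases, against 5773 to 5959 bases in WT), and Mbnl3 spreads widely within WT.

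Other genes of splicing were counted by 6 lists, beside all tested genes, of which 17.4% were higher and 15.6% lower in GDel2 against WT. Of 20 tested genes among 29 further tissue-restricted splicing regulators, 5 were higher and 6 lower in GDel2 against WT, with a median log2 difference of −0.24. Rbm47, an RNA-binding protein of endoderm and epithelia, fell the most of those named, averaging 26.3 ± 1.28 CPM in GDel1, 3.36 ± 0.05 CPM in GDel2 and 31.0 ± 2.88 CPM in WT (SD, n = 2, 2 and 3). Its log2 difference of GDel2 was −3.20 ± 0.14 from WT (adjusted p = 3.92e-06) and −2.97 ± 0.15 from GDel1 (adjusted p = 9.52e-06; SE, edgeR). Rbpms2, a regulator of smooth muscle, had a log2 difference of −0.92 (adjusted p = 8.33e-04, edgeR), and Elavl2, a neuronal RNA-binding protein, had one of 0.69 (adjusted p = 0.00426). Of 8 partners of Rbfox proteins in the large assembly of splicing regulators, 1 passed, Hnrnpul2, with a fall of 0.43 (adjusted p = 0.0103) and a list median of 0.12.

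Among 13 SR proteins, which promote exon inclusion, 1 was higher and 2 were lower in GDel2 against WT, with a median of −0.06. Srsf9 fell by 0.60 (adjusted p = 0.0305) and Srsf7 rose by 0.25 (adjusted p = 0.0463, edgeR). Of 22 hnRNP genes, 3 were higher and 4 lower, with a median of 0.08. Hnrnpd fell by 0.93 (adjusted p = 2.77e-04), while Hnrnpf rose by 0.64 (adjusted p = 0.00367) and Hnrnpa2b1 by 0.50 (adjusted p = 0.0126, edgeR). Of 43 core spliceosome genes, 4 were higher and 4 lower, with a median of 0.03. Prpf8 fell by 0.70 (adjusted p = 0.00598) and Dhx16 fell by 0.53 (adjusted p = 0.00213), and Sf3b3, on chromosome 8, rose by 0.61 (adjusted p = 0.00147, edgeR). Of 10 genes of nonsense-mediated decay, 1 was higher (Upf3a, on chromosome 8, 0.49, adjusted p = 0.0149, edgeR). The 1 lower gene was Smg1 (−0.29, adjusted p = 0.0286, edgeR), and the list median was 0.04. For tested genes of chromosome 8 the median was 0.44 in GDel2 against WT, with 51.0% higher past the threshold. In all but the tissue-restricted list, the share past the threshold in GDel2 against WT was under the 33.1% of all tested genes.

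In GDel1 against WT the medians of the 6 lists were −0.22 for the tissue-restricted regulators, 0.24 for the Rbfox partners, 0.13 for SR proteins, 0.21 for hnRNP genes, 0.12 for the core spliceosome and −0.18 for nonsense-mediated decay, against 0.00 over all tested genes. In GDel2 against GDel1, 4 of 20 tissue-restricted regulators were higher and 4 lower, and 3 of 10 genes of nonsense-mediated decay were higher and 0 lower. Of 22 hnRNP genes, 1 was higher and 5 lower, and of 43 core spliceosome genes, 1 was higher and 4 lower. Among 8 Rbfox partners 0 were higher and 1 lower, and the same held among 13 SR proteins. Of all tested genes, 14.8% were higher and 12.8% lower past the threshold in this comparison.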

How the data were processed

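RNA of mouse E14 embryonic stem cells was measured in 7 libraries (GDel1 2, GDel2 2, WT 3). Each has a deposited RSEM gene table of expected counts, estimated by the authors' tool without depth scaling, of which 6.91% to 8.22% of values per library are not whole. The deposited TPM values are scaled by the authors by effective length to a fixed sum. The deposited FPKM values, scaled by the authors per kilobase and depth, were not used. The authors' tool also gives mean transcript lengths in bases. Per the submitters' processing notes, tools were STAR, RSEM, Bowtie2, deepTools and HiC-Pro, with the mm10 build. Per the labels' protocols, libraries were directional. Not given in the sources used here are the strand used in counting and the annotation's release.

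Symbols came from a gene name table (55141 of 55487 identifiers), positions and promoters from RefSeq tables of GRCm38.p6. Expected counts were rounded and filtered with filterByExpr (minimum count 10, total 15), leaving 15421 genes. The tests were edgeR 4.0.16 quasi-likelihood fits (robust, TMM scaling, R 4.3.3) with 3 groups, and with 2 groups for the deletions together. P-values were adjusted by Benjamini-Hochberg over all tested genes, with a threshold of 0.05, and were 2-sided. Log2 lengths were tested with limma 3.58.1. CPM are counts relative to the TMM-scaled library size, and folds are edgeR's log2 differences converted to ratios. Standard errors belong to log2 differences. Fits were tested on simulated data.

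Members and lists were chosen with earlier results of these data known. Named genes were all members, the 2 tested genes nearest to Rbfox2, up to 3 per splicing list past the threshold in GDel2 against WT with the largest changes and a mean of at least 10 CPM, and the 5 most like Rbfox2. Alternatives were RLE scaling, DESeq2 1.42.0, no or a stricter filter (minimum count 50), limma on log2(TPM + 1) or log2(TPM + 0.1), mitochondrial genes left out, a replicate block and each library left out.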

Additional observations from a re-analysis of the deposited data

Results flagged for a closer look

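The differences of GDel2 and of GDel1 from WT were not alike for the Mbnl genes, by the test of GDel2 against GDel1, which carry the same deletion label. GDel2 stood above GDel1 by a log2 difference of 0.97 for Mbnl1 and 2.40 for Mbnl3, in 2 of 2 libraries each, and at −1.33 for Mbnl2, lower in 2 of 2 libraries. Rbfox2 was left out of this comparison because its GDel1 level was taken as the basis of its choice. For Celf1, with GDel1 and GDel2 pooled, 1 of the 4 deletion libraries lay apart from the others, which were close together. For scale, the WT libraries ran from 520.1 to 559 CPM. GDel1 replicate 1 had 496 CPM, while the other 3 deletion libraries had 453, 452 and 453 CPM. This was a gap of 0.980 of the whole range, beyond Dixon's 95% critical value for 4 samples, a value that takes the 4 as 1 group. Chance marks about 5% of groups in this way.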

How the results depend on the processing

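Of 582 values of single members under the alternatives, 556 kept their direction. Counts of members include Rbfox2, which is a description wherever GDel1 libraries enter. Members past the threshold in GDel1 against WT, a description without a test, numbered 1 (Rbfox2, by the value it was chosen on). The number was 5 with limma on log2(TPM + 1) and on log2(TPM + 0.1), 3 without GDel1 replicate 1 and GDel2 replicate 2 (the libraries of highest mitochondrial share, chosen after seeing the data), and 0 to 1 with each library left out (0 without WT replicate 1 or 2). In GDel2 against WT, 5 became 2 and 1 on the TPM scales and 4 to 6 with each library left out. In GDel2 against GDel1, 4 became 4 to 5 with each library left out and 3 with limma on log2(TPM + 0.1). For the deletions together, 0 became 2 with DESeq2 and 3 with the 3-group fit's average of both deletions, and stayed 0 with each library left out. No member passed for length under any alternative, although without GDel1 replicate 1 as many as 445 other genes did.

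On the log2(TPM + 1) scale the median gene shifted by −0.30 in GDel1 against WT, −0.05 in GDel2 against WT, 0.24 in GDel2 against GDel1 and −0.16 in the deletions. With log2(TPM + 0.1) it shifted by −0.44, −0.07, 0.36 and −0.24 in the same order. Directions that reversed were all of members that had not passed. With log2(TPM + 1) and log2(TPM + 0.1), Ptbp2 was at −0.45 and −0.48 in GDel1, and at −0.12 and −0.13 in GDel2, where Ptbp1 was at −0.013 in both. In GDel2 against GDel1, Esrp2 was at 0.28 and 0.38, Ptbp2 at 0.33 and 0.35, and Celf1 at 0.40 in both. In the deletions, Mbnl1 was at −0.11 and −0.13, Ptbp1 at −0.29 in both, and Ptbp2 at −0.28 and −0.31. With each library left out, or both libraries of highest mitochondrial share, Ptbp1 ran from −0.21 to 0.048 in GDel1, Ptbp1 in the deletions from −0.041 to 0.081, and Ptbp2 from −0.15 to 0.36 in GDel2. In GDel2 against GDel1, Ptbp2 ran from −0.41 to 0.16 and Esrp1 from −0.27 to 0.85. The cause was not tested.

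Deviations from the group mean correlated at −0.21 to 0.10 over 6 same-numbered pairs of libraries. With 2 libraries in each deletion group, the deviations of such a group mirror each other. These values are therefore not independent and cannot settle whether replicate numbers pair the libraries. With the replicate block, members past the threshold numbered 0 in GDel1 against WT (1 gene in all), 3 in GDel2 against WT (2296 genes, with Mbnl1 and Celf1 lost), 3 in GDel2 against GDel1 (2235 genes) and 0 in the deletions. With the GDel2 numbers crossed, chosen after seeing the data, 4 members and 4197 genes passed in GDel2 against GDel1.

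Over all genes, 58 passed in GDel1 against WT, and the count moved to 993 with DESeq2, 2357 with no filter, 29 with the stricter filter, 3250 and 3531 on the TPM scales, and 4 to 2034 with each library left out. The 5099 of GDel2 against WT became 2604 and 2492 on the TPM scales and 2643 to 6578 with each library left out. With Mbnl3 at 14 to 102 counts and Esrp1 at 4 to 19, counting error limits both.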
